A study of Rattus norvegicus with 9 samples.

Results

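miR-103 and miR-107 are closely related microRNAs (miRNAs), small RNAs that repress target messages. Their reads were taken from the table of annotated sequences as every rat sequence whose miRNA name begins with mir-103 or mir-107, whatever its type of match and on either strand. This gave 349 different sequences under 7 names, of 46358 annotated sequences in the whole table, and 19635 reads over 9 libraries. The libraries were small RNA from the left ventricular free wall of 3 untreated male Sprague-Dawley rats aged 8 months (hearts 6, 7 and 8). Every heart gave 3 layers, an outer (epicardium) and an inner (endocardium) slice roughly 1 mm thick and the mid-myocardium between them, and every layer had 3 libraries. Each library was made from chopped tissue and holds RNA of all the cells of its layer, so fewer cells of a type and less miRNA per cell cannot be told apart.

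A miRNA finds its targets mainly through its seed, the bases from nt no. 2 to nt no. 8, and miRNAs with one seed are grouped as a family. Hairpins of miR-103 and miR-107 lie in introns of pantothenate kinase genes, whose enzymes begin the synthesis of coenzyme A, and the family is known for effects on insulin sensitivity and lipid metabolism. After the hairpin has been cut, enzymes may trim the 3′ end or add bases that the gene does not encode, mostly A or U, and the resulting length and sequence forms are called isomiRs.

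The mature sequences from RefSeq (build GRCr8) are given to show how alike the pair is, with the seed in capitals.
miR-103-3p: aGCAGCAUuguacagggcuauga
miR-107-3p: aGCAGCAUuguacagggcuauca
Both are 23 nts long and differ by a single substitution, G22C, in which the base of miR-103 comes first, then the position counted from 1 at the 5′ end, then the base of miR-107. Among the 693 mature entries of the RefSeq table these 2 alone had the seed GCAGCAU. The same AGCAGC run starts 1 nt later in miR-15b, miR-16, miR-195, miR-497 and miR-322, whose seed is AGCAGCA. The first of these is shown for comparison, with its seed in capitals.
miR-15b-5p: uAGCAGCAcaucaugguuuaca

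There were 3 hairpins, each inside a pantothenate kinase gene and on its strand. Mir103a1 lay at chr10:20748474-20748559 on the plus strand, within Pank3. Mir103a2 lay at chr3:138963227-138963312 on the plus strand, within Pank2. Mir107 lay at chr1:241750418-241750504 on the minus strand, within Pank1. The genome from the first nt of the mature sequence is shown to mark where a read can be assigned to a hairpin, with the bases that are not the same in all 3 hairpins in capitals.
Mir103a1 (chr10:20748525-20748554, plus strand): agcagcattgtacagggctatGaaGgCaTT
Mir103a2 (chr3:138963278-138963307, plus strand): agcagcattgtacagggctatGaaAgAaCC
Mir107 (chr1:241750424-241750453, minus strand): agcagcattgtacagggctatCaaAgCaCA
The first 21 nts were the same in all 3, nt no. 22 told miR-103 from miR-107, and nt no. 25 was the first to tell one miR-103 hairpin from the other. All 3 hairpins encode A at nt no. 23 and nt no. 24.

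The names given to the reads followed nt no. 22, but for 2 reads. Of the reads named for miR-103 whose sequence reached that position, 12176 of 12176 had G, and of those named for miR-107, 3165 of 3165 had C. The remaining 4287 reads carried the names of both miRNAs and are called shared reads here. Of the shared reads, 67.6% ended before nt no. 22, 17.4% had A there and 14.9% had T there, neither of which any hairpin encodes at that position. A single sequence with 2 reads had C, the base of miR-107, and still carried both names. Over the 9 libraries, miR-103 took 62.3% ± 3.05 (SD, n = 9) of the family's reads, miR-107 took 16.2% ± 2.15 and shared reads took 21.6% ± 1.83.

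Levels are given in RPMM, the unit of the deposited table, in which the annotated reads of each library are scaled to the same total (reads per mega-read mapped). Annotated reads ran from 283991 (mid-myocardium of heart 6) to 1428025 (endocardium of heart 7) per library, and the family's own reads from 805 to 2980. At these depths 3 reads were worth 2.10 to 10.6 RPMM. Because the reads carry no molecular identifiers, copies of 1 molecule made by PCR count separately, and such floors and the intervals below cover counting error only. The paper also warns that the adapters used can bias read numbers, so levels of different miRNAs compare reads and need not rank their RNA amounts. Markers of heart muscle were abundant in every layer, with miR-133a at means of 76936 to 107251 RPMM, while the liver's miR-122 had 2 reads in all.

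miR-103 was moderately abundant in the ventricle, at 1640 ± 229 RPMM over the 9 libraries (SD). In epicardium miR-103 was at 1617, 1821 and 1622 RPMM in hearts 6, 7 and 8. In mid-myocardium it was at 1873, 1344 and 1534 RPMM, and in endocardium at 2033, 1385 and 1531 RPMM. The layers overlapped, and heart 6 held the highest value in mid-myocardium and in endocardium but the lowest in epicardium. The miR-103 entry common to both hairpins ranked 43rd, 45th and 42nd of 411 rat entries in epicardium, mid-myocardium and endocardium.

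miR-107 had fewer named reads than miR-103 in every library. Its level was 477, 488 and 390 RPMM in the epicardium of hearts 6, 7 and 8. In mid-myocardium it was 419, 433 and 499 RPMM, and in endocardium 499, 260.5 and 374 RPMM. The lowest value was in the endocardium of heart 7 and the ranges of the layers overlapped. Its rank among rat entries was 69th, 71st and 72nd from the outer to the inner layer. Shared reads stood at 595 ± 88.3, 568 ± 78.0 and 545 ± 138 RPMM (SD, n = 3) in epicardium, mid-myocardium and endocardium.

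**Figure D1:**
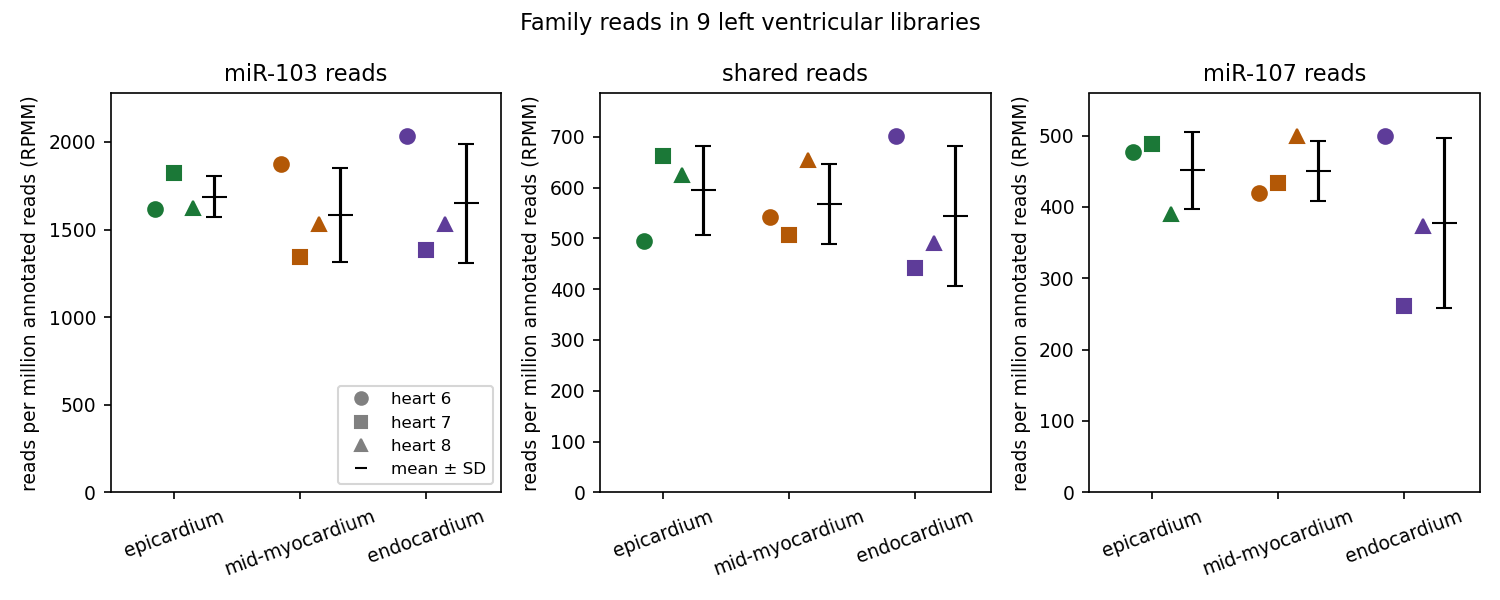
RPMM (y axis from 0) of miR-103, shared reads and miR-107 in each layer, with 1 point per library shaped by heart and the mean ± SD of 3 libraries beside the points. In each of the 3 panels the layers overlap, and the lowest miR-107 value, 260.5 RPMM, is in the endocardium of heart 7.

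Summed over all its reads, the family was at 2732 ± 209 RPMM in epicardium, 2602 ± 286 in mid-myocardium and 2572 ± 593 in endocardium (SD, n = 3). No neighbours in that order differed by more than their spread, and the exact two-sided permutation test gave p = 0.8 for endocardium against epicardium, 0.6 for mid-myocardium against epicardium and 1 for endocardium against mid-myocardium. With 3 libraries against 3 this test cannot go below 0.1.

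The layers were also compared by limma on log2(RPMM + 1) over all 2180 entries, of which 452 had at least 10 reads in at least 1 library. The family has 8 entries when strands are counted apart, and 4 of them passed this filter. At an adjusted p under 0.05 limma called 0 of the 4 in each of the 3 comparisons, against a background of 0.0% of all entries in each. Over all entries 16 had an unadjusted p under 0.05 for endocardium against epicardium, 14 for mid-myocardium against epicardium and 16 for endocardium against mid-myocardium, and edgeR and DESeq2 also called 0.

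For endocardium minus epicardium the log2 difference of miR-103 was -0.05 (95% interval -0.64 to 0.54, limma adjusted p = 0.993). For miR-107 it was -0.30 (-0.97 to 0.36, limma adjusted p = 0.993). The intervals therefore include no difference, and for miR-107 they also include a level lower by 0.97 on the log2 scale. Mid-myocardium minus epicardium gave -0.10 (-0.69 to 0.49) for miR-103 and -0.00 (-0.67 to 0.66) for miR-107, with limma adjusted p = 0.963 and 0.999. Endocardium minus mid-myocardium gave 0.05 (-0.54 to 0.64) for miR-103 and -0.30 (-0.96 to 0.36) for miR-107, with limma adjusted p = 0.961 and 0.883.

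Shared reads differed by -0.14 (limma adjusted p = 0.993) between endocardium and epicardium on the same log2 scale. The entry mir-103-2, sequences assigned to the Pank2 hairpin alone, was the only one of the 4 whose layers did not overlap in a comparison. It was at 13.8, 13.0 and 12.9 RPMM in the epicardium of hearts 6, 7 and 8 and at 10.6, 7.97 and 8.55 RPMM in their mid-myocardium. These levels rest on 10 to 13 reads per epicardial library and 3 to 9 per mid-myocardial library. The log2 difference was -0.51 (95% interval -1.14 to 0.12, limma adjusted p = 0.937), and 9.29% of all 452 entries were likewise without overlap in that comparison. In the other 2 comparisons 0 of the 4 were without overlap, against 7.08% of entries for endocardium against epicardium and 9.51% for endocardium against mid-myocardium.

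Animals were compared by limma's F test with layer as a covariate. The mean over layers of miR-103 was 1841, 1516 and 1562 RPMM in hearts 6, 7 and 8 (limma adjusted p = 0.863), and that of miR-107 was 465, 394 and 421 RPMM (limma adjusted p = 0.905). Heart 6 was highest for both. The background between hearts was 0.0% of entries called by limma, with 47 at an unadjusted p under 0.05. edgeR called 9 entries, and the 4 tested entries of the family had edgeR adjusted p from 0.863 to 0.957.

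The 2 miRNAs differed most in where their reads ended. The 5 most abundant sequences of miR-103 made up most of its reads and are shown with the bases from nt no. 22 on in capitals.
miR-103 mature sequence: agcagcattgtacagggctatGA
miR-103 with T at nt no. 23: agcagcattgtacagggctatGT
miR-103 ending at nt no. 22: agcagcattgtacagggctatG
miR-103 with T at nt no. 24: agcagcattgtacagggctatGAT
miR-103 with T at nt no. 23 and 24: agcagcattgtacagggctatGTT
In this order they had 4928, 4080, 1577, 390 and 368 reads. The mature sequence was thus the most common, at 667.4 ± 107.2 RPMM (SD, n = 9), with the form ending in T close behind it at 555 ± 83.0 RPMM.

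For miR-107 the mature sequence was only the third most abundant. Its 5 leading sequences are shown in the same way.
miR-107 ending at nt no. 22: agcagcattgtacagggctatC
miR-107 with T at nt no. 23: agcagcattgtacagggctatCT
miR-107 mature sequence: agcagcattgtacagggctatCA
miR-107 with A at nt no. 24: agcagcattgtacagggctatCAA
miR-107 with T at nt no. 24: agcagcattgtacagggctatCAT
These had 1739, 974, 261, 79 and 13 reads. The form lacking the last nt was at 233 ± 40.6 RPMM (SD, n = 9) and the mature sequence at 35.6 ± 8.00 RPMM.

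Shares by 3′ end are of the reads named for each miRNA, which all reach nt no. 22. Shorter reads and those with A or T at nt no. 22 are shared reads and were not counted. As a share of its own reads from the 3′ arm of the hairpin, the exact mature sequence made up 40.6% ± 2.05 of miR-103 (SD, n = 9) and 8.37% ± 1.25 of miR-107. In the epicardium of hearts 6, 7 and 8 this share was 42.1%, 41.9% and 37.8% for miR-103. For miR-107 it was 9.38%, 7.45% and 7.71% in the same libraries. The share of miR-103 was the higher in 9 of 9 libraries and the ranges lay far apart, since the highest for miR-107 was 10.9% (13 of 119 reads, 95% Wilson interval 6.50 to 17.8%) in the mid-myocardium of heart 6.

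The form lacking only nt no. 23 showed the opposite order. It made up 12.8% ± 2.01 of miR-103 and 55.2% ± 6.28 of miR-107 (SD, n = 9), again with no overlap in 9 of 9 libraries. Longer reads, ending at nt no. 24 or later, made up 9.92% ± 1.57 of miR-103 and 3.63% ± 1.65 of miR-107. Reads of miR-103 reached nt no. 23 in 86.9% ± 2.08 of cases and those of miR-107 in 43.7% ± 6.13. Over the 3 hearts, the exact permutation test that flips the sign of each heart's mean difference gave p = 0.25 for each of the 8 end measures compared, the smallest value that 3 hearts allow, and the adjusted value over the 8 is the same.

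**Figure D2:**
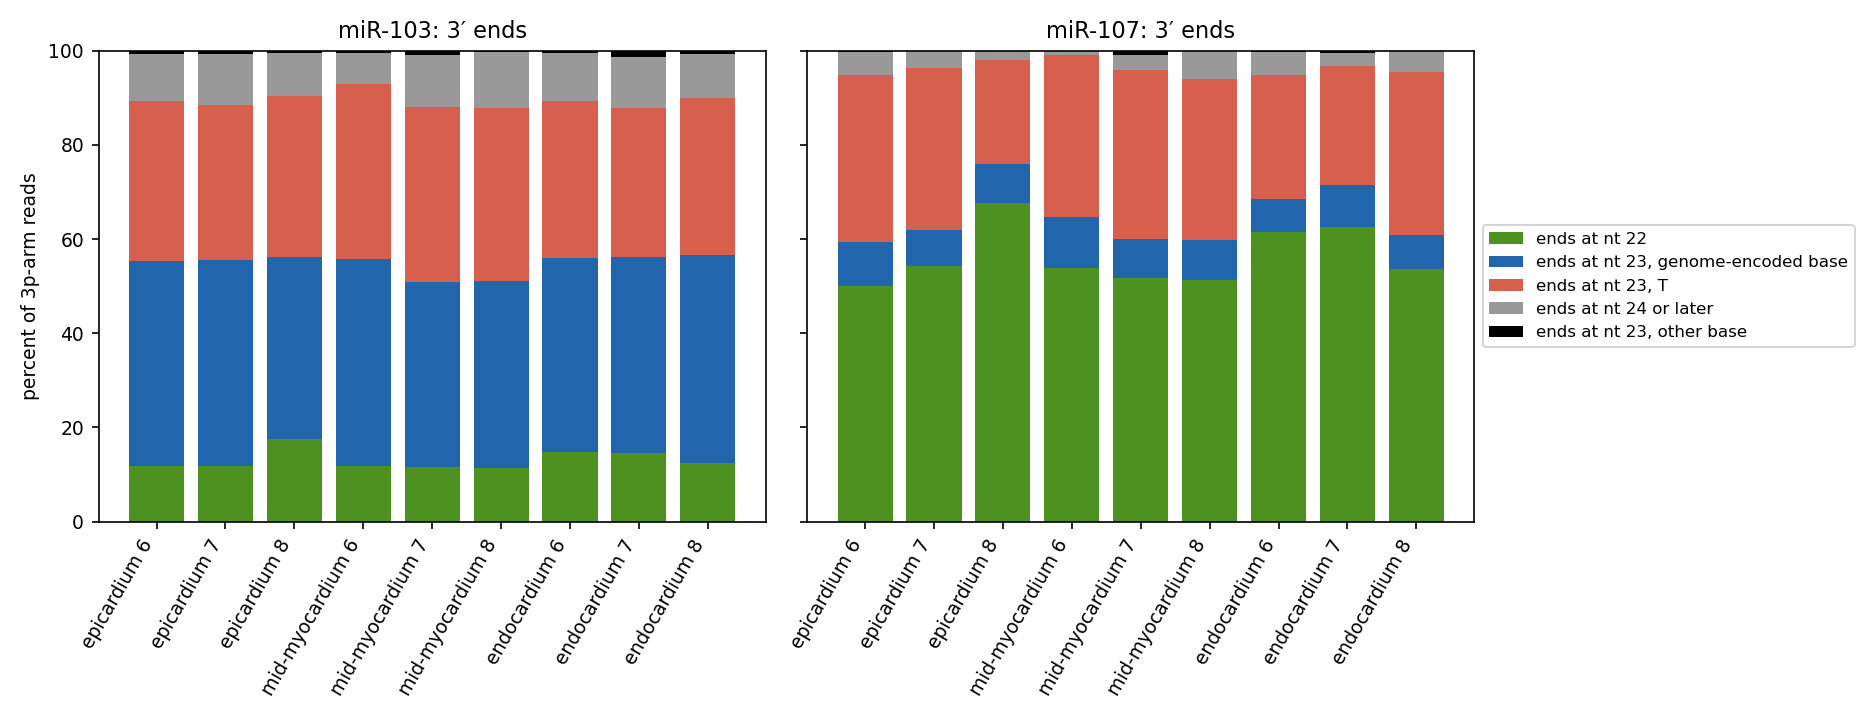
Share of 3′-arm reads (percent, y axis) by their last position in each of the 9 libraries, for miR-103 on the left and miR-107 on the right, with each bar adding up to the reads of 1 library; reads ending at nt no. 23 are split by their base there. Only reads named for 1 miRNA are shown, which all reach nt no. 22. Reads ending at nt no. 22 take 50.0 to 67.8% of miR-107 and 11.4 to 17.5% of miR-103.

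Where reads did reach nt no. 23, the base was often not the encoded A. T was found at nt no. 23 in 44.8% ± 2.20 of such miR-103 reads and in 72.4% ± 3.47 of such miR-107 reads (SD, n = 9). C made up 0.556% ± 0.135 of them in miR-103 and G 0.298% ± 0.204. The ratio of T to A was 0.827 ± 0.0740 in miR-103 and 2.73 ± 0.475 in miR-107, higher for miR-107 in 9 of 9 libraries.

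Substitutions inside the sequence were rare by comparison. Pooled over libraries, 45.7% of 10456 miR-103 reads and 72.7% of 1381 miR-107 reads had another base than A at nt no. 23. From nt no. 2 to nt no. 20 the share with another base than the mature one was 0.0166 to 0.0995% at any position of miR-103 and 0 to 0.254% of miR-107. At nt no. 22 the value is 0 for both because that base decides the name.

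**Figure D3:**
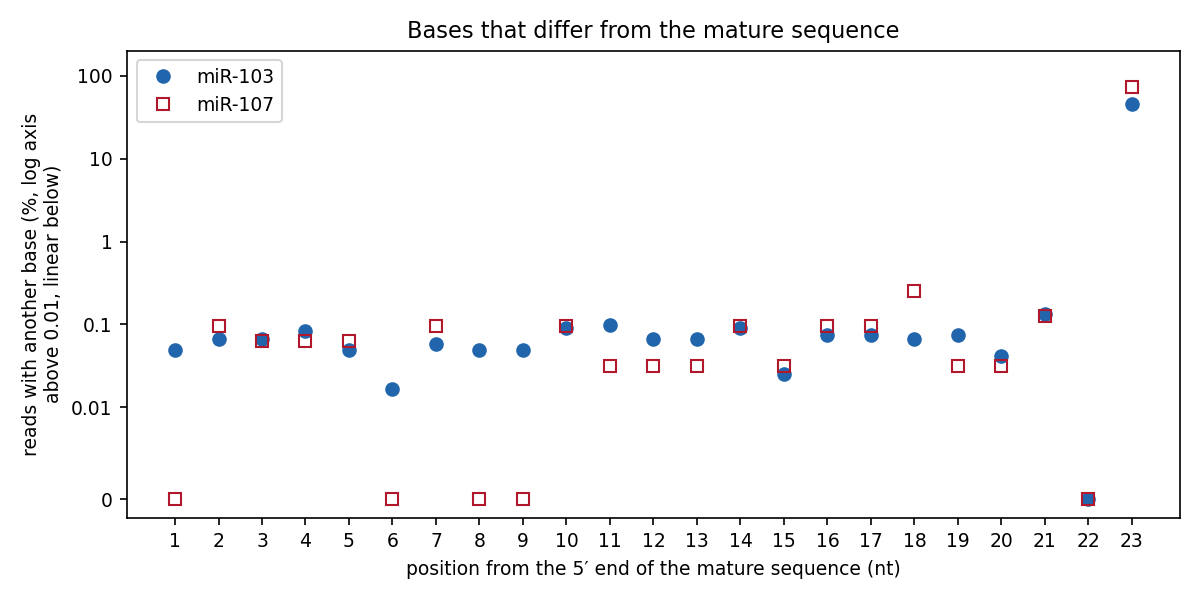
Percent of reads (y axis, logarithmic above 0.01 and linear below) whose base differs from the mature sequence at each position from the 5′ end (x axis, nt), pooled over the 9 libraries for miR-103 (filled circles) and miR-107 (open squares). At nt no. 23 the values are 45.7% and 72.7%, and no position from nt no. 2 to nt no. 20 exceeds 0.254%.

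The mature sequence with its last base replaced by T made up 33.9% ± 2.01 of miR-103 and 30.9% ± 5.12 of miR-107 (SD, n = 9). It was the higher for miR-103 in 6 of 9 libraries, and in the epicardium of heart 8 the shares were 33.4% (95% Wilson interval 31.1 to 35.8%) and 22.04% (18.1 to 26.6%). Set among other rat miRNAs, these were the highest such shares pooled over libraries when only reads named for 1 of the pair were counted. Shared reads, most of which end before nt no. 22, were left out of both denominators. Other entries keep the short reads filed under their names. With shared reads added both shares would be lower, and the ranks given here were not computed that way. Of 93 rat entries with at least 1000 reads and a mature sequence in the table, 55 do not end in T, and the pooled share with T in the last place had a median of 0.570% over them. miR-103 ranked 1st at 33.8% and miR-107 ranked 2nd at 30.8%, followed by miR-143 at 29.7% and miR-210 at 19.5%. The order was not the same in each layer, since the endocardial mean was 28.1% for miR-107 and 30.3% for miR-143. By their share of exact mature reads the same 2 entries ranked 33rd and 71st of 93, around a median of 31.0%. For the form lacking the last nt miR-107 ranked 4th of 93.

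**Figure D4:**
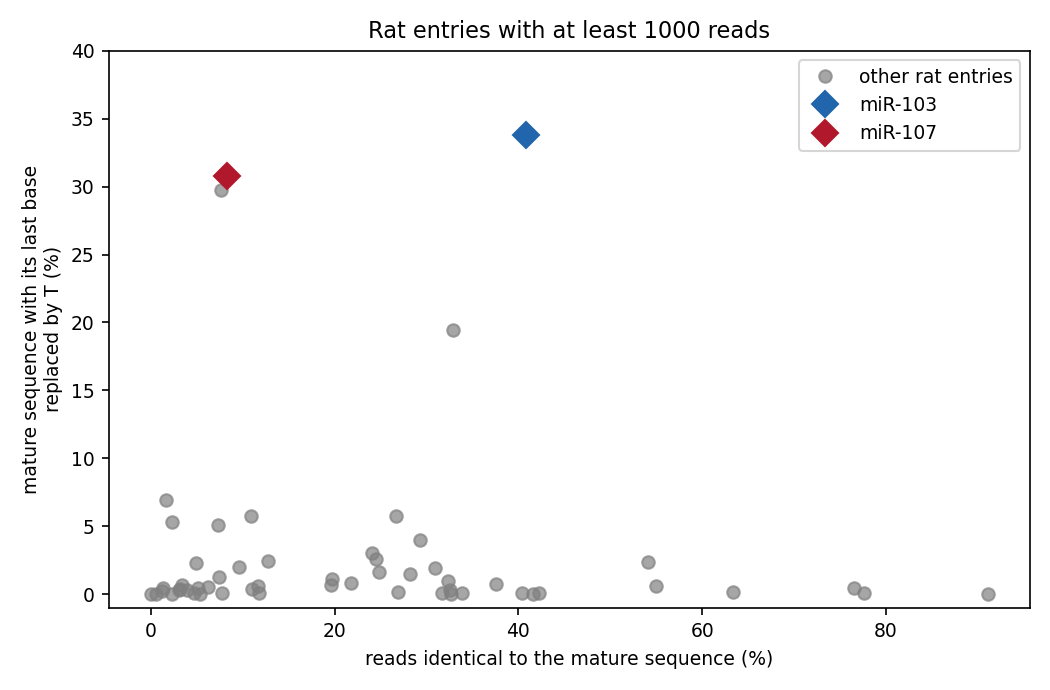
Each point is 1 of the 55 rat entries with at least 1000 reads whose mature sequence does not end in T, with the percent of its reads identical to the mature sequence on the x axis and the percent that have T in the last place on the y axis, pooled over 9 libraries. miR-103 (33.8%) and miR-107 (30.8%) stand highest, with mature shares of 40.8% and 8.25%, all over their named reads without the shared reads.

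By layer, the share of miR-103 with T at nt no. 23 was 33.3%, 32.1% and 33.4% in the epicardium of hearts 6, 7 and 8. It was 36.9%, 36.3% and 36.0% in mid-myocardium and 32.9%, 31.2% and 32.8% in endocardium. All 3 mid-myocardial libraries thus lay above the other 6 when all named reads of the arm were the denominator. Mid-myocardium minus epicardium was 3.44 percentage points and endocardium minus mid-myocardium was -4.09 points, each with p = 0.1 in the exact two-sided permutation test, the smallest it can give. For miR-107 the share was 34.5%, 35.7% and 33.3% in mid-myocardium against 26.2%, 24.8% and 33.2% in endocardium, without overlap (exact permutation p = 0.1), while epicardium at 35.3%, 33.2% and 22.04% overlapped both. Over only the reads that reach nt no. 23, T made up 44.9%, 47.0% and 48.1% of miR-103 in mid-myocardium and 42.9%, 41.9% and 47.3% in epicardium, which overlapped (exact permutation p = 0.3). Endocardium at 44.0%, 43.8% and 43.1% stayed below mid-myocardium for miR-103 (exact permutation p = 0.1), but for miR-107 mid-myocardium at 76.4%, 74.5% and 69.9% and endocardium at 69.3%, 69.1% and 77.1% overlapped on this count (exact permutation p = 0.7). The miR-103 form lacking only nt no. 23 was also without overlap, at a mean of 13.5% in endocardium and 11.4% in mid-myocardium (exact permutation p = 0.1). For that form no background over other entries was computed. Adjusted over the 27 comparisons of 9 measures between layers, the smallest value was 0.675, so none passed 0.05. Among the 21 rat entries with at least 1% of reads with T in the last place, the layers did not overlap in 4.76% for mid-myocardium against epicardium, 9.52% for endocardium against epicardium and 19.0% for endocardium against mid-myocardium. These counts include the pair itself, as the 1 entry of the first comparison is miR-103, and miR-103 and miR-107 are 2 of the 4 entries of the last.

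Markers of cell types were set beside this order. The summed level of miR-1, miR-133a, miR-133b, miR-208, miR-208b and miR-499 was 103758 to 140329 RPMM in mid-myocardium, 53110 to 105396 in epicardium and 60390 to 101745 in endocardium. Most of this sum was miR-133a, at means of 107251, 79385 and 76936 RPMM in the same order. These heart muscle markers overlapped between mid-myocardium and epicardium, none of the 6 passed limma's test between layers, and the median log2 difference of mid-myocardium from epicardium was 0.40, with 6 of 6 above 0. The summed fibroblast markers were at 2644 to 2832 RPMM in mid-myocardium, above 1512 to 2270 in epicardium and overlapping 1476 to 2730 in endocardium, with a median log2 difference of mid-myocardium from epicardium of 0.35 (2 of 2 above 0). Between mid-myocardium and epicardium 9.29% of all 452 single entries were likewise without overlap. The summed red cell markers were at 651 to 1013, 426 to 1025 and 561 to 827 RPMM in mid-myocardium, epicardium and endocardium, with a median of 0.50 (2 of 2 above 0). The part of any of these in the T share was not tested. Limma called 0 of the markers that passed the filter for endothelium (miR-126), fibroblasts (miR-199a and miR-214), smooth muscle (miR-143 and miR-145), red cells (miR-451 and miR-144), leukocytes (miR-142, miR-223 and miR-150) and nerve (miR-9, at 63.3 to 204 RPMM). The median log2 difference of mid-myocardium from epicardium was 0.16 for endothelium and 0.08 for leukocytes (2 above 0, 1 below). It was -0.06 for smooth muscle (1 above, 1 below) and -0.68 for nerve. The part of these sets in the T share was not tested either.

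Shared reads were led by the 21 nts that all 3 hairpins encode. The 5 leading shared sequences are shown with bases from nt no. 22 on in capitals, none of which any hairpin encodes at nt no. 22.
shared, ending at nt no. 21: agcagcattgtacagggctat
shared, T at nt no. 22: agcagcattgtacagggctatT
shared, A at nt no. 22 and 23: agcagcattgtacagggctatAA
shared, A at nt no. 22: agcagcattgtacagggctatA
shared, ending at nt no. 20: agcagcattgtacagggcta
They had 2265, 548, 315, 286 and 249 reads. The first made up 52.4% ± 2.56 of shared reads (SD, n = 9), and its level was 298 ± 47.6 RPMM, above that of any single miR-107 sequence. At nt no. 22 of shared reads A and T were about equally common, with 17.5% ± 2.48 and 15.03% ± 1.49.

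The 5′ end, which sets the seed, varied little. Of all reads from the 3′ arm, 0.893% ± 0.184 (SD, n = 9) began at another base than the mature sequence. Reads lacking the first nt made up 0.290% ± 0.0975 and those lacking the first 2 nts 0.256% ± 0.154. The highest share in any library was 1.31%, in the epicardium of heart 7.

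Because 3′ ends differ, the ratio of miR-103 to miR-107 depended on which reads were counted. With all reads named for 1 miRNA it was 3.39, 3.73 and 4.16 in the epicardium of hearts 6, 7 and 8. It was 4.47, 3.10 and 3.08 in mid-myocardium and 4.07, 5.32 and 4.10 in endocardium. On the log2 scale the layer means were 1.91 ± 0.15, 1.81 ± 0.31 and 2.16 ± 0.22 (SD, n = 3), and the layers overlapped. Endocardium minus epicardium was 0.25 (exact permutation p = 0.3) and endocardium minus mid-myocardium 0.35 (exact permutation p = 0.3). Without the endocardium of heart 7 these were 0.12 and 0.23, and without the mid-myocardium of heart 6 the latter was 0.53.

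With the mature sequences alone the ratio was 19.5 ± 4.40 (SD, n = 9). It was then 23.2, 24.4 and 25.3 in the endocardium of hearts 6, 7 and 8, above 15.2, 21 and 20.4 in epicardium and 17.5, 14.3 and 13.9 in mid-myocardium. The log2 differences of endocardium were 0.38 from epicardium and 0.68 from mid-myocardium, each with p = 0.1 in the exact permutation test, the smallest it can give. These tests were not among the 27 comparisons that were adjusted. The miR-107 side of the ratio rests on 13 to 45 mature reads per library. For that sequence alone endocardium differed by -0.39 from epicardium and -0.55 from mid-myocardium (limma adjusted p = 0.979 and 0.831). With reads carrying T at nt no. 23 it was 4.47 ± 1.34, and with reads ending at nt no. 22 it was 0.908 ± 0.173. In that last class miR-107 exceeded miR-103 in 7 of 9 libraries, the exceptions being the epicardium of heart 8 at 1.06 and the endocardium of heart 7 at 1.21.

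**Figure D5:**
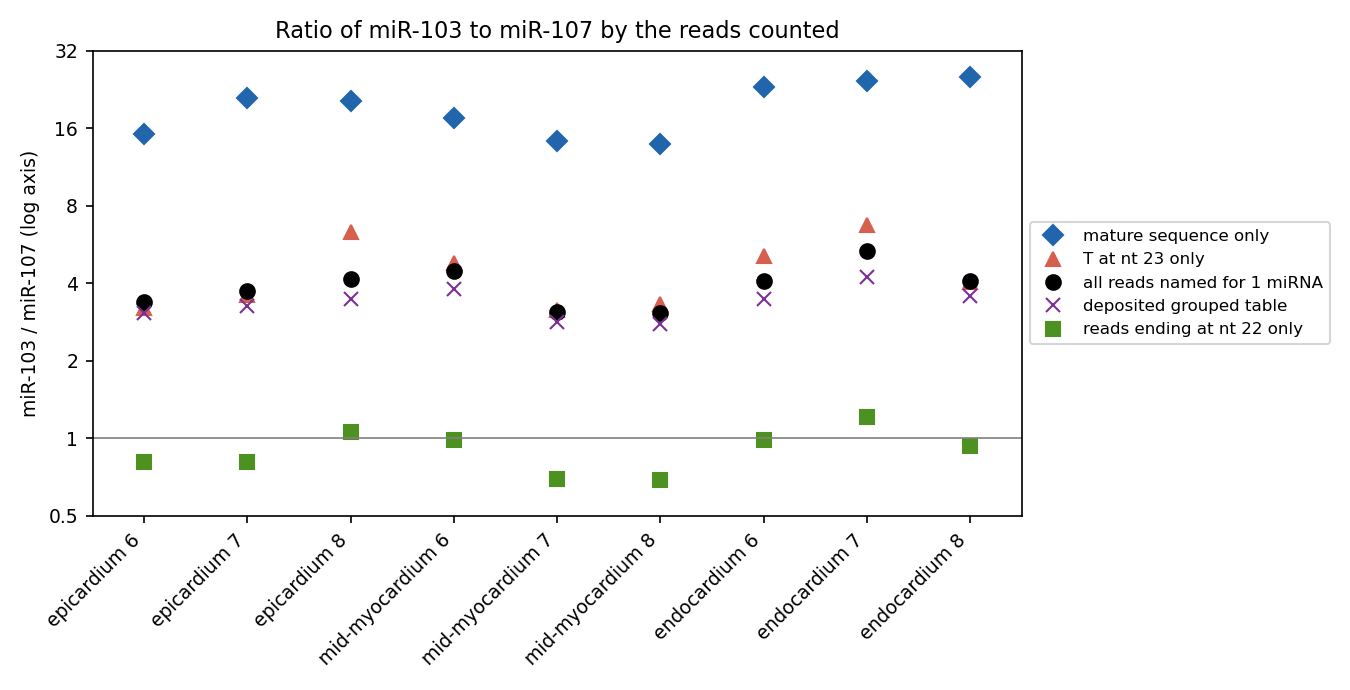
Ratio of miR-103 to miR-107 (logarithmic y axis, with a line at 1) in each of the 9 libraries, by the reads counted: mature sequence only, T at nt no. 23 only, all reads named for 1 miRNA, the deposited grouped table, and reads ending at nt no. 22 only. The mature sequences give 13.9 to 25.3 and the reads ending at nt no. 22 give 0.687 to 1.21.

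The deposited grouped table, which gives 1 value for each miRNA, has no shared entry, and its ratio was lower than that of the named reads in 9 of 9 libraries. It was 3.38 ± 0.464 (SD, n = 9) against 3.94 ± 0.712. Reads filed as a precursor match were left out of the splits that follow. Splitting the shared reads by the number of hairpins, 2 for miR-103 and 1 for miR-107, gave 3.37 ± 0.463. It came within 0.907% of the deposited ratio in each library, or within 3.67 reads of the miR-103 and miR-107 values. Splitting them instead in proportion to the named reads gave 3.93 ± 0.708. The deposited ratios were thus met by the split by hairpin number, and the rule the authors used was not stated in the sources used here.

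Few reads told one miR-103 hairpin from the other. Among miR-103 reads that had the encoded A at nt no. 23 and nt no. 24 and went on to nt no. 25, 46 had A there, as Mir103a2 encodes, and 3 had G, as Mir103a1 encodes. A further 37 had T, which neither encodes. The commonest form of each kind is shown with bases from nt no. 22 on in capitals.
as in Mir103a2: agcagcattgtacagggctatGAAA
as in Mir103a1: agcagcattgtacagggctatGAAG
These had 40 and 2 reads. An added A cannot be told from an encoded one in the first of them. The names mir-103-2 and mir-103-1 held 85 and 11 reads in all.

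The other arm of the hairpins was scarcely present. It had 7 reads under 3 sequences, 0.0357% of the family's reads, of which 3 reads were filed as the * strand of miR-107. Its commonest sequence is shown.
5′ arm of miR-107: agcttctttacagtgttgccttg

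The 7 miRNAs listed for the AGCAGC run (miR-15a, miR-15b, miR-16, miR-195, miR-497, miR-322 and miR-503) gave 5 entries that passed the filter, and limma called 0 of the 5 in any comparison. Their median log2 difference for endocardium minus epicardium was 0.04, beside -0.00 over all 452 entries. miR-16, which is known to restrain the cell cycle, was at 3930 ± 1323, 4122 ± 1686 and 4155 ± 1981 RPMM (SD, n = 3) in epicardium, mid-myocardium and endocardium, above the family's sum in each layer's mean.

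Of 20 miRNAs listed for roles in metabolism, 16 passed the filter and limma called 0 of the 16 in any comparison, with 10 above 0 and 6 below 0 for endocardium minus epicardium and a median of 0.17. For mid-myocardium minus epicardium 14 were above 0 and 2 below, with a median of 0.17, beside 0.03 over all 452 entries. Examples are miR-378, encoded in a gene for a regulator of mitochondrial metabolism, at 23882 ± 2698 RPMM in epicardium and 27519 ± 6756 in endocardium (SD, n = 3). miR-29a, which targets collagen messages, was at 7718 ± 3532 and 6075 ± 1818 RPMM in the same layers. miR-34a was at 37.5 ± 10.4, 69.2 ± 7.66 and 51.8 ± 14.4 RPMM in epicardium, mid-myocardium and endocardium, with a log2 difference of mid-myocardium from epicardium of 0.90 (limma adjusted p = 0.937). miR-33, known from cholesterol export, had 21 reads in all and miR-375 of the pancreatic islet 15, and both were below the filter.

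The rat entries with the pattern most like that of the family over the 9 libraries were miR-28, miR-22, miR-194, miR-339 and miR-152. Their root mean square difference from the family in centred log2(RPMM + 1) was 0.12, 0.15, 0.15, 0.16 and 0.19, against a median of 0.36 over 145 entries with at least 10 reads in every library. The family's own SD over the libraries was 0.19 on this scale.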

How the data were processed

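The authors sequenced 9 TruSeq small RNA libraries and annotated reads against miRBase in CLC Genomics Workbench. They deposited each annotated sequence in RPM (here RPMM) over annotated reads, a grouped table of signal per miRNA on smaller totals, and the count of reads of each unannotated sequence. All 125689 annotated values above 0 were whole reads within 0.05 read, so reads were recovered. Only the family's reads were aligned, without gaps, to RefSeq hairpins (GRCr8) of the miRNA they were named for. Positions were counted from the start of the mature sequence.

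Limma (3.58.1, R 4.3.3) was fitted to log2(RPMM + 1) over all 9 libraries with Benjamini-Hochberg adjustment. edgeR 4.0.16, DESeq2 1.42.0 and Baggerley's test, re-implemented here as an approximation of the authors' test, were alternatives. Hearts pair the samples, since each animal gave all layers. Deviations from layer means correlated at a mean of 0.148 within hearts (-0.133 to 0.403) and -0.0708 between them (-0.319 to 0.331). The highest values within hearts, 0.304, 0.403 and 0.386, were all from heart 6. All methods were tested on simulated data with 45 changes of 2-fold and 45 of 4-fold between endocardium and epicardium. Limma called 7 and 34 of them, edgeR 11 and 38, and DESeq2 15 and 38, so each missed most of the 2-fold changes. Baggerley's test called 0 and 6, so its counts of calls are not given. The members and lists were chosen with earlier results of these data known. Named were the 5 leading sequences of each kind, the mature sequences, the fixed lists and the 5 entries most like the family. The sequences and entries named as telling hairpins apart, and miR-143 and miR-210, were singled out after their values were seen.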

Additional observations from a re-analysis of the deposited data

Results flagged for a closer look

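Reads outside the rat entries were found for this family. Of the annotated sequences, 9 were filed under miR-103 or miR-107 entries of other species, with 12 reads over the 9 libraries, above the limit of 3 reads that a count of 0 allows. They entered no count of the family's reads above, but are part of the annotated totals and of the 2180 entries. Among the 13317 unannotated sequences, deposited only above a minimum number of reads, 0 held the common core of the family. A sequence with that core would mostly have been annotated, so this count says little about missed reads.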

How the results depend on the processing

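No alternative brought miR-103 or miR-107 past the threshold. Their 132 log2 differences between layers under alternatives had adjusted p from 0.788 up, and 120 kept their sign. Part of the 120 could not change. The heart block, fitting only the 2 layers compared, no filter, and leaving out a library of the third layer leave the log2 difference as it was. Of the differences that reversed, the total of rat entries gave 0.019 for miR-103 in endocardium minus epicardium. For miR-107 in mid-myocardium minus epicardium Baggerley's test gave 0.014 and exact mature sequences 0.17. With each library left out in turn, miR-103 ran from -0.21 to 0.068 (endocardium minus epicardium), -0.23 to 0.011 (mid-myocardium minus epicardium) and -0.11 to 0.18 (endocardium minus mid-myocardium). miR-107 ran from -0.53 to -0.06, -0.10 to 0.057 and -0.53 to -0.06. The cause of these reversals was not tested. With heart number as replicate block, miR-107 in endocardium minus epicardium stayed at -0.30 (limma adjusted p = 0.987), and the block changed no other call. Entries called between hearts numbered 0, but 9 by edgeR, 10 with a pseudocount of 10, 2 with no filter, and 0 to 5 with a library left out, 5 without mid-myocardium of heart 8 and 1 without epicardium of heart 8. The total of rat entries for hearts was added after seeing the data and gave 0. The mean log2 ratio of miR-103 to miR-107, 1.96, became 4.25 with exact mature sequences, which leave out the reads ending at nt no. 22, and 1.75 in the grouped table. Its layer differences with a library left out ran from 0.12 to 0.33 (endocardium minus epicardium), 0.23 to 0.53 (endocardium minus mid-myocardium) and -0.28 to -0.0089 (mid-myocardium minus epicardium). Counting T only over reads that reach nt no. 23 was chosen after seeing the data, as was leaving libraries out of the T shares. Endocardium minus epicardium of miR-107 then went from -2.11 to 0.040 percentage points, and with a library left out it ran from -6.19 (without epicardium of heart 8) to 0.429 (without epicardium of heart 6).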
